A study of Homo sapiens with 12 samples.

Results

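The genes described here encode 4 interferons and the receptor chains through which they signal, and they were followed in SCC15 and SCC25 cells, both head and neck squamous cell carcinoma (HNSCC) lines of oral origin. All 8 genes were found by gene name in the tables of both lines, among 29657 genes listed for SCC15 and 31055 for SCC25. They were IFNL1, IFNL2, IFNL3 and IFNB1 for the ligands and IFNLR1, IL10RB, IFNAR1 and IFNAR2 for the receptor chains. The genes were chosen by their normalized counts with squamocin against DMSO in these libraries, which were already known, so that their values against DMSO are a description and carry no test. RNA-seq libraries were made from wild-type cells of each line after 24 h with squamocin, an annonaceous acetogenin that the sample labels call ACGs, or with DMSO as the vehicle, with 3 libraries per treatment and line and 12 in all. Nothing in the labels states that these came from separate cultures, so p-values measure only the spread between these libraries, which may be technical.

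Lambda interferons, the type III interferons, bind a receptor made of IFNLR1, which is largely restricted to epithelial cells, and IL10RB, a chain shared with the receptors of interleukin-10 and interleukin-22. Interferon beta, a type I interferon, binds IFNAR1 and IFNAR2, which nearly all cells carry. Both receptors act through the kinases JAK1 and TYK2 and a complex that holds STAT2 and IRF9 and switches on the interferon-stimulated genes, and the ligand genes themselves are switched on when nucleic acid sensors activate IRF and NF-kappaB factors.

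The ligand genes lie in 2 places. IFNL3 (ENSG00000197110; chromosome 19, 39243553 to 39245129, minus strand), IFNL2 (ENSG00000183709; chromosome 19, 39268514 to 39270092, plus strand) and IFNL1 (ENSG00000182393; chromosome 19, 39296325 to 39298673, plus strand) form a cluster, and IFNB1 (ENSG00000171855; chromosome 9, 21077105 to 21077963, minus strand) stands in the type I interferon region, with GRCh38 coordinates as the deposited tables give them. Their promoters are shown because the 4 ligands shared a direction in SCC25 cells, as described after them. Each is the 250 bases before the RefSeq start site (GRCh38.p14), read on the strand of the gene, with a window found for 7 of the 8 genes. RefSeq gives IFNL3 a second start site, whose window (chr19:39245007-39245256) held none of the letters searched and is not printed.
IFNL1 promoter, chr19:39296157-39296406, plus strand: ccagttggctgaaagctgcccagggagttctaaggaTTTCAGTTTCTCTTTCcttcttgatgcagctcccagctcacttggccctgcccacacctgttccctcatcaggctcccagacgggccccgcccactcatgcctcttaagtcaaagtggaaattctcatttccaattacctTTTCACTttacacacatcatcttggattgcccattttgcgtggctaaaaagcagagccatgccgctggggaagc
IFNL2 promoter, chr19:39268146-39268395, plus strand: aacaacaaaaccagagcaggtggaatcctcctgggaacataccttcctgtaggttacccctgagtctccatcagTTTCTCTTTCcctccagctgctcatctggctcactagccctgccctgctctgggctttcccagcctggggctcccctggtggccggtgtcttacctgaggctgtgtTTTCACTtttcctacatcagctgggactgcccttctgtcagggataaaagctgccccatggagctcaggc
IFNL3 promoter, chr19:39245251-39245500, minus strand: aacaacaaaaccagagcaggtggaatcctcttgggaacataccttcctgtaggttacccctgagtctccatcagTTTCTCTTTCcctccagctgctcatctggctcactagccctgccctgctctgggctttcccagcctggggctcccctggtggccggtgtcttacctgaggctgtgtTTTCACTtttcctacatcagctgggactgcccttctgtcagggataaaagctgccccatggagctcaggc
IFNB1 promoter, chr9:21077943-21078192, minus strand: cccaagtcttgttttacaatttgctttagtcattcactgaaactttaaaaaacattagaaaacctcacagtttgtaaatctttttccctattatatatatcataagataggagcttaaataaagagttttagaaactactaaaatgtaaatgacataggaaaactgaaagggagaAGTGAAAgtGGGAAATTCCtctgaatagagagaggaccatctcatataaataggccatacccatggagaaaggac
Capitals mark matches to the letters searched on both strands, so that a match on the opposite strand appears as its reverse complement. The IRF repeat, GAAANNGAAA, was present once in the IFNL2 and IFNL3 windows, from -176 to -167 of the start site, and as an overlapping pair in the IFNL1 window, from -214 to -199, each on the opposite strand. The NF-kappaB letters, GGGANNTNCC, were present in the IFNB1 window from -66 to -57. The run AGTGAAA, which was picked after the sequences had been read, was present in all 4 windows shown, from -75 to -69 in IFNB1, -74 to -68 in IFNL1 and -70 to -64 in IFNL2 and IFNL3, where it overlapped none of the other matches. The C/EBP-ATF letters, TGATGNAA, were found in none of the 4. Of 35116 RefSeq promoter windows of 300 bases, 3.57% held the IRF repeat, 4.93% the NF-kappaB letters, 4.38% AGTGAAA and 3.62% the C/EBP-ATF letters. Such matches describe letters and are not evidence of binding. The IFNL2 and IFNL3 windows were identical at 99.6% of their bases.

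The 2 genes are also close in their transcripts, which bears on every count given for them. Over 680 aligned bases, the canonical transcripts of IFNL2 and IFNL3 (GENCODE 44) were 97.6% identical, with identical runs of up to 125 bases. IFNL1 was 82.9% identical to IFNL2 and 84.4% to IFNL3. How the authors assigned reads that match more than one place is not given in the sources used here, so the division of reads between IFNL2 and IFNL3 is uncertain.

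Values are normalized counts, that is, reads per gene divided by 1 size factor per library, which the authors set separately within each line. The libraries held 16665563 to 22748845 reads on genes. Within the groups, libraries differed by more than sampling noise, and squamocin replicate 3 of SCC15 stood apart from replicates 1 and 2, with a chi-square per degree of freedom of 71.6 and 63.5 against 1.72 to 11.02 in the other pairs. Among 8 markers of squamous epithelium, each line and treatment had reads for all, and 6 in SCC15 and 8 in SCC25 had a mean of at least 10. Of 4 plasmacytoid dendritic cell markers, CLEC4C and LILRA4 had 0 reads in all groups, and 1 or 2 had a mean of at least 10, depending on the group. The list summed to 16.2 to 57.2 normalized counts in SCC15 and 75.5 to 129.5 in SCC25. Of 4 leukocyte markers, all had reads in SCC15, and PTPRC, the pan-leukocyte marker, had 0 reads in SCC25. A mean of at least 10 was reached by 2 of them in SCC15 and in SCC25 with DMSO, and by 1 in SCC25 with squamocin. The list summed to 323 to 542 in SCC15, 330.2 to 424 in SCC25 with DMSO and 20.8 to 30.0 in SCC25 with squamocin. The sums were 384 to 1060.2 over 4 fibroblast markers and 19.8 to 294 over 3 endothelial markers. Depending on the group, 2 or 3 of the fibroblast and 1 to 3 of the endothelial markers had a mean of at least 10. Their part in the results was not tested.

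In SCC25 cells, the lambda interferons went from a few reads per library with DMSO to over 250 with squamocin. IFNL1 had normalized counts of 407, 299 and 409.7 in the squamocin libraries and 3.22, 2.70 and 1.77 in the DMSO libraries, the latter from 4, 3 and 2 reads. The groups were far apart, with a ratio of 143 (95% exact counting interval 74.9 to 313), where intervals here cover counting error only because the reads carry no molecular identifiers. IFNL2 had 585, 569.9 and 588 with squamocin and 1.61, 2.70 and 1.77 with DMSO, from 2, 3 and 2 reads. Its squamocin libraries were close to each other and all above DMSO, with a ratio of 289 (140 to 720). IFNL3 had 328, 362 and 374 with squamocin against 1.61, 0 and 0 with DMSO, where it had 2 reads in 1 library and none in the others. The ratio of 620 (171 to 5125) is therefore known only loosely, although the lowest squamocin library held 258 reads. On the scale of log2 (normalized count + 1), the differences were 6.72, 7.60 and 8.01, and they ranked 5, 4 and 1 from the top among 16539 genes in SCC25. The added 1 compresses such differences, and the value for IFNL3 ran from 5.11 to 10.42 with pseudocounts of 10 and 0.1.

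IFNB1 moved the same way in SCC25 at a lower level. Its normalized counts were 43.2, 34.3 and 22.2 with squamocin and 1.61, 1.80 and 0.885 with DMSO, from 34, 33 and 20 reads against 2, 2 and 1. The groups did not overlap, and the ratio was 22.9 (9.43 to 72.2), or 3.79 on the log2 scale, rank 72. All 4 ligands entered the genes with a mean of at least 10 only through their squamocin libraries. They were also chosen with these values known, so nothing is read from their ranks. In bulk RNA, more cells making an interferon and more RNA in each such cell cannot be told apart.

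In SCC15 cells, the same ligands were already present with DMSO. IFNL1 had normalized counts of 580.1, 529 and 515 with DMSO and 620, 706 and 1139.7 with squamocin. The groups did not overlap, and the ratio was 1.504 (1.41 to 1.60), although the difference of 0.55 on the log2 scale became 0.29 without squamocin replicate 3 and 0.055 with library totals made equal, where the groups overlapped. IFNL2 had the widest difference, with 154, 214 and 317 against 70.0, 68.0 and 86.4 with DMSO. The groups did not overlap and the ratio was 3.04 (2.62 to 3.53), or 1.54 on the log2 scale, with 1.05 at equal library totals. IFNL3 had 115, 136 and 235 with squamocin and 122, 127 and 119.6 with DMSO, and the groups overlapped. Its log2 difference of 0.33 was 0.024 without squamocin replicate 3 and -0.17 with equal library totals. IFNB1 overlapped as well, at 90.4, 76.4 and 151 against 124, 116 and 105. Its log2 difference was -0.18, with 0.026 without squamocin replicate 2, -0.46 without squamocin replicate 3 and -0.67 with equal library totals, where all squamocin libraries were below DMSO. Squamocin replicate 3, which stood apart over all genes, was the highest of its group for all 4 ligands.

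**Figure D1:**
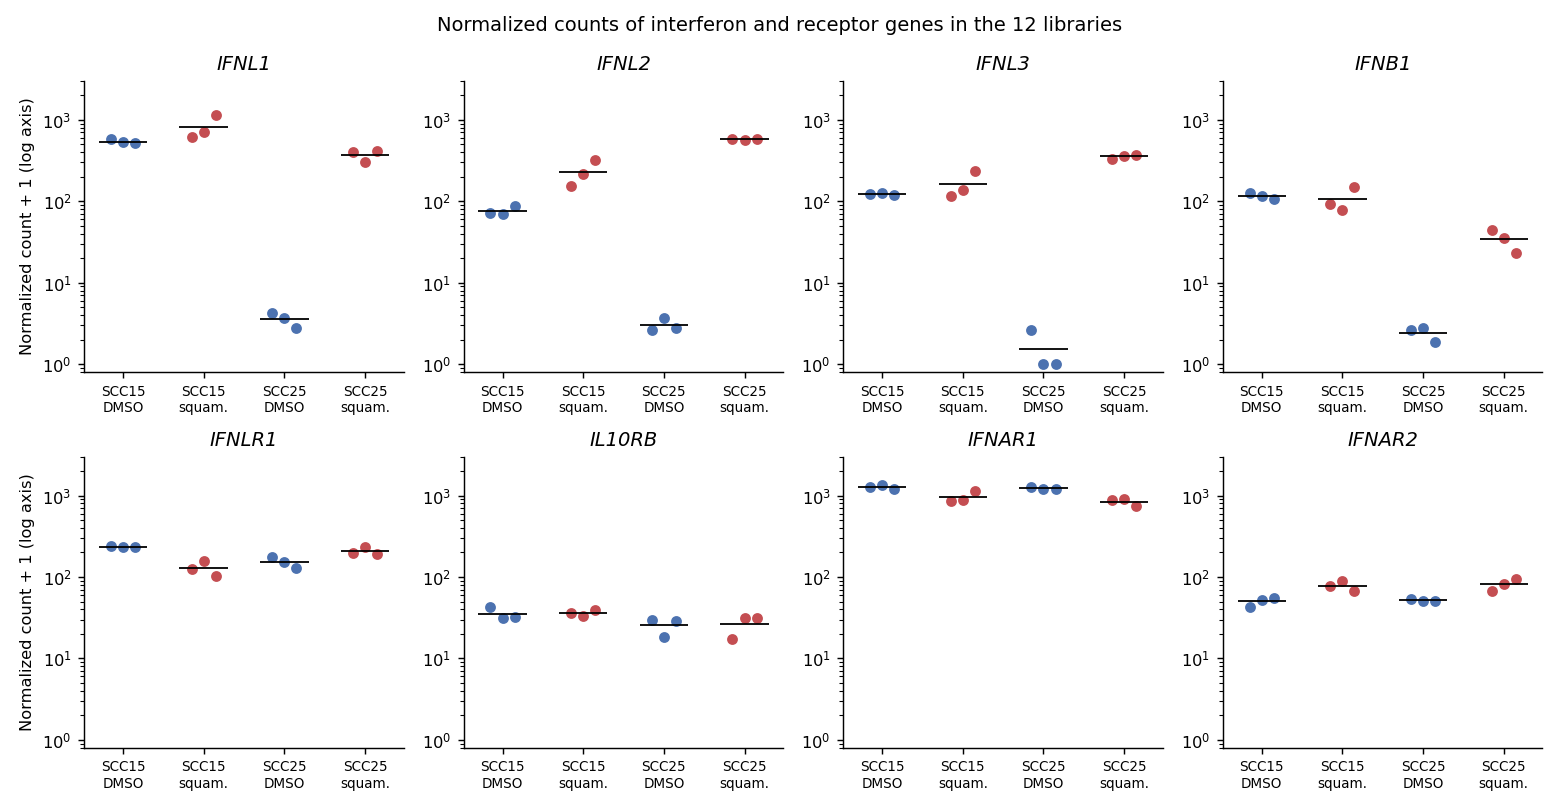
Normalized count plus 1 (log axis) of each ligand gene (top) and receptor gene (bottom) in the 12 libraries; points are libraries, horizontal lines are means of 3, blue is DMSO and red is squamocin. The 4 ligands sat near the bottom of the axis in SCC25 with DMSO, with at most 4 reads per library, and well above it in the other 3 groups, whereas no receptor gene spanned such a range.

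With DMSO, the lines differed far more in the ligands than in the receptors. Because the tables were scaled separately, the lines were set side by side in RPM, the reads of a gene per 1000000 reads on genes, with no test. For IFNL1, the 3 SCC15 libraries held 1939 reads in all and the 3 SCC25 libraries 9, a ratio of 247 in RPM (130 to 541 by counting error). The ratio was 43.7 for IFNL2 (20.9 to 110), 252 for IFNL3 (69.4 to 2089) and 94.5 for IFNB1 (40.1 to 292). For the receptor chains it was 1.83 for IFNLR1 (1.64 to 2.05), 1.64 for IL10RB (1.23 to 2.19), 1.22 for IFNAR1 (1.17 to 1.27) and 1.15 for IFNAR2 (0.925 to 1.42). After squamocin, the ligand ratios between SCC15 and SCC25 were 2.09 for IFNL1, 0.372 for IFNL2, 0.430 for IFNL3 and 3.01 for IFNB1, so that SCC25 was above SCC15 for IFNL2 and IFNL3 and below it for IFNL1 and IFNB1. The receptor ratios were then 0.598 for IFNLR1, 1.32 for IL10RB, 1.10 for IFNAR1 and 0.925 for IFNAR2, so that IFNLR1 was the higher in SCC25.

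The make-up of the lambda interferon reads differed accordingly. In SCC15 with DMSO, IFNL1 took 73.3% of 2646 lambda reads (95% exact binomial interval 71.6 to 75.0), IFNL2 10.1% and IFNL3 16.6%. With squamocin, IFNL1 took 67.8% (66.1 to 69.5) of 3053 reads and IFNL2 18.9%, and the IFNL2 share was between 17.3% and 20.3% in the squamocin libraries against 9.06% to 12% in the DMSO libraries. In SCC25 with squamocin, IFNL2 was the most counted, at 44.5% (42.8 to 46.2) of 3458 reads, with 28.3% for IFNL1 and 27.3% for IFNL3. Its share was 44.3%, 46.3% and 42.9% in the 3 libraries. SCC25 with DMSO had 18 lambda reads in all, too few to give shares. The near identity of IFNL2 and IFNL3 applies to these shares too.

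Of the receptor chains, IFNLR1 (ENSG00000185436; chromosome 1, 24154157 to 24187959, minus strand), the chain specific to lambda interferons, went in opposite directions in the lines on the authors' scaling. In SCC15 it had normalized counts of 124, 155 and 101 with squamocin and 236 in each DMSO library. The groups were apart, with a ratio of 0.540 (0.474 to 0.615) and a log2 difference of -0.91, or -1.41 with equal library totals. In SCC25 it had 198, 235 and 189 with squamocin and 174, 150.2 and 129 with DMSO. Squamocin was the higher group without overlap there, with a ratio of 1.37 (1.22 to 1.55) and a log2 difference of 0.46. With equal library totals this was 0.25 and the groups overlapped. IL10RB (ENSG00000243646; chromosome 21, 33266358 to 33310187, plus strand), the other chain, had 34.8, 31.9 and 38.6 with squamocin and 41.8, 30.0 and 31.4 with DMSO in SCC15. In SCC25 the values were 16.5, 30.2 and 30.0 against 29.0, 17.1 and 27.4. The groups overlapped in both lines, with log2 differences of 0.038 and 0.044 that turned to -0.45 and -0.16 with equal library totals, where the SCC15 groups no longer overlapped.

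For interferon beta, IFNAR1 (ENSG00000142166; chromosome 21, 33324477 to 33359862, plus strand) was lower with squamocin in both lines. Its normalized counts in SCC15 were 862, 888 and 1143 with squamocin and 1276, 1351 and 1205 with DMSO. In SCC25 they were 883, 896 and 739 against 1284, 1217 and 1216. The groups did not overlap in either line, and the ratios were 0.750 (0.714 to 0.788) and 0.676 (0.642 to 0.712). The SCC15 log2 difference of -0.42 was -0.91 with equal library totals. IFNAR2 (ENSG00000159110; chromosome 21, 33229901 to 33265675, plus strand), its partner, was higher in both, at 76.5, 87.8 and 65.9 against 41.8, 50.6 and 55.0 in SCC15. In SCC25 it had 66.1, 82.2 and 94.4 with squamocin and 52.4, 49.5 and 49.6 with DMSO. These groups did not overlap either, with ratios of 1.57 (1.27 to 1.93) and 1.61 (1.32 to 1.98), although the SCC15 log2 difference of 0.63 was 0.14 with equal library totals, where the groups overlapped. Of the canonical IL10RB transcript, 89.2% of the bases also belong to exons of the readthrough gene IFNAR2-IL10RB, and 93.1% of the IFNAR2 transcript is shared with that gene or with the antisense gene IL10RB-DT. The canonical transcripts of the other 6 genes share no exonic bases with another gene. Whether the authors' counting left out reads that fall on 2 genes, and whether it used strand, is not given in the sources used here, and the part this played in the low IL10RB and IFNAR2 counts was not tested.

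To set the genes beside each other, levels are given as RPKM, that is, RPM divided by the length of the canonical transcript in kb. In SCC15 with DMSO, IFNL1 was the highest of the 8 at 45.1 ± 2.82 (SD, n = 3), followed by IFNAR1 at 13.6, IFNL3 at 11.2, IFNB1 at 8.83, IFNL2 at 5.07, IFNLR1 at 3.33, IL10RB at 1.14 and IFNAR2 at 0.778, and no neighbours in this order overlapped. In SCC25 with DMSO, the order was IFNAR1 at 11.1, IFNLR1 at 1.81, IL10RB at 0.691 and IFNAR2 at 0.678, which overlapped, and then the ligands from 0.181 for IFNL1 to 0.0413 for IFNL3, each overlapping its neighbour. With squamocin, the lambda interferons led in SCC25, with 28.9 ± 0.705 (SD, n = 3) for IFNL2, 23.7 ± 1.72 for IFNL3 and 22.7 ± 3.96 for IFNL1, of which the last 2 overlapped. IFNB1 was at 1.87 ± 0.585 there, overlapping IFNLR1 at 2.15 ± 0.238. In SCC15 with squamocin, IFNL1 stayed first at 47.5 ± 10.8, and IFNL2 at 10.8 ± 2.81 overlapped IFNL3 at 10.2 ± 2.91. IFNAR1, at 7.20 ± 0.387 in SCC15 and 6.54 ± 0.626 in SCC25 with squamocin, was above the other receptor chains in all 4 groups. These orders depend on the length used. With all annotated exons as the length, IFNB1 at 8.83 and IFNL3 at 7.99 were above IFNAR1 at 5.26 in SCC15 with DMSO. In SCC25, IFNL1 at 0.181 ± 0.0515 (SD, n = 3) was then above IL10RB at 0.167 ± 0.0440 with DMSO, by less than either SD. There, IFNL1 at 22.7 was above IFNL3 at 17.0 with squamocin.

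**Figure D2:**
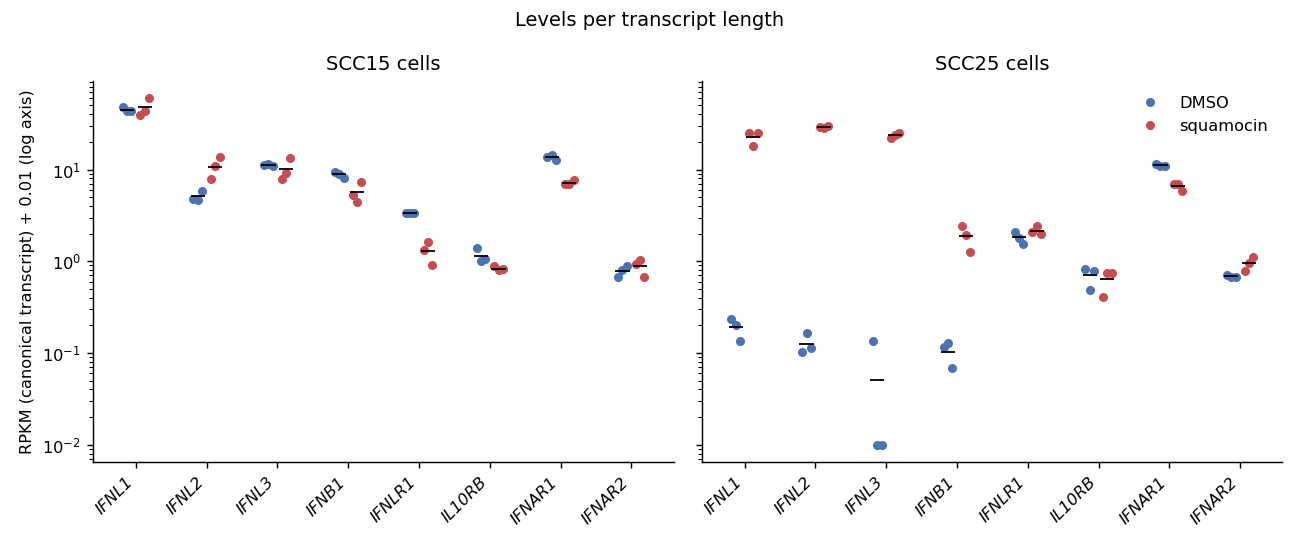
RPKM (RPM divided by the length of the canonical transcript in kb), plus 0.01 (log axis), for the 8 genes in SCC15 (left) and SCC25 (right); points are libraries, lines are means of 3, blue is DMSO and red is squamocin. On this length, the lambda interferons in SCC25 moved from below all receptor chains with DMSO to above them with squamocin, while in SCC15 IFNL1 led with both treatments. With all annotated exons as the length, the mean of IFNL1 was above that of IL10RB in SCC25 with DMSO, by less than either SD.

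Squamocin was compared with DMSO over all genes by limma on log2 (normalized count + 1), called at an adjusted p (Benjamini-Hochberg) under 0.05, among genes with a mean of at least 10. All 8 genes passed that minimum in both lines. In SCC15, 2 of the 8 were past the threshold as higher (IFNL2 and IFNAR2) and 2 as lower (IFNLR1 and IFNAR1), where 30.9% of 15902 genes were higher and 30.0% lower. In SCC25, 6 were past it as higher (all but IL10RB and IFNAR1) and 1 as lower (IFNAR1), where 38.3% of 16539 genes were higher and 38.5% lower. Since the choice of the 8 genes used this contrast, nothing is read from these counts.

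Other interferons were at or near the limit of these counts. Of 18 genes of the alpha, omega, kappa, epsilon, gamma and lambda 4 interferons, 4 were listed in SCC15 and 3 in SCC25, and 1 passed the minimum, in SCC15. This was IFNE, an epithelial type I interferon, which fell from 29.0, 17.4 and 13.97 with DMSO to 2.32, 2.28 and 3.73 with squamocin, a log2 fold change of -2.44 (standard error, SE, 0.43, adjusted p = 0.00208, limma). In SCC25, IFNE had 16.1, 24.3 and 10.6 with DMSO against 1.27, 2.08 and 0, below the minimum for a test. IFNL4, which lies 1185 bases from IFNL3, had 10.2, 5.53 and 4.36 with DMSO and 0, 2.28 and 0 with squamocin in SCC15.

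The machinery that switches the ligands on did not move in 1 direction. The counts of each list below stand beside 30.9% of all genes called higher and 30.0% lower in SCC15, and 38.3% and 38.5% in SCC25. Of 17 kinases and factors of induction, SCC15 had 8 higher and 5 lower, and SCC25 had 8 and 6, with median log2 fold changes of 0.36 and 0.13 against 0.012 and -0.015 over all genes. IRF1, an interferon regulatory factor, rose from 2250 ± 57.3 (SD, n = 3) to 11274 ± 493 in SCC15, a log2 fold change of 2.32 (SE 0.082, adjusted p = 5.49e-06, limma), and from 3984 ± 65.9 to 28902 ± 690 in SCC25, by 2.86 (SE 0.037, adjusted p = 1.39e-14, limma). JUN, an AP-1 subunit of the factors that assemble on the IFNB1 enhancer, rose by 1.95 and 1.38, and TRAF6, an adaptor ligase upstream of NF-kappaB, rose by 0.54 and 1.502. HMGA1, an architectural protein of that enhancer, rose by 2.14 in SCC15 and fell by 0.58 in SCC25. That pair of responses differed by 2.73 (SE 0.092, adjusted p = 1.07e-09, limma contrast of the lines). Of the 14454 genes tested in both lines, 52.2% differed in response.

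Of 11 sensors and adaptors, SCC15 had 2 higher and 4 lower, and SCC25 had 5 of each, with medians of -0.15 and 0.115. TLR3, the endosomal sensor of double-stranded RNA, fell from 162 ± 7.30 to 36.5 ± 2.03 (SD, n = 3) in SCC15, a log2 fold change of -2.11 (SE 0.14, adjusted p = 3.61e-05, limma), and from 522 ± 18.9 to 193 ± 11.3 in SCC25, one of -1.43 (SE 0.081, adjusted p = 5.73e-09, limma). MAVS, the mitochondrial adaptor of the RNA helicase sensors, fell by 1.26 and 1.36. DDX58, which encodes the RNA sensor RIG-I, fell by 1.28 in SCC15 and rose by 0.60 in SCC25, with a difference between the responses of -1.88 (SE 0.10, adjusted p = 4.75e-08, limma). STING1, the adaptor of DNA sensing, fell by 1.48 in SCC25 (adjusted p = 5.29e-10, limma), and its value in SCC15 was -0.17 (adjusted p = 0.154, limma). These responses differed by 1.31 (SE 0.11, adjusted p = 1.24e-06, limma contrast of the lines).

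Downstream of the receptors, 3 of 5 signalling genes in SCC15 were called higher and 0 lower by limma, whereas SCC25 had 2 higher and 3 lower. Their medians were 0.35 and -0.15. The count of 0 was also 0 at an unadjusted p under 0.05 and by edgeR and DESeq2. None of these checks used equal library totals, for which this count was not taken. In RPM, where library totals are equal, the 5 genes summed in SCC15 to 799 ± 13.5 with DMSO and 673 ± 149 with squamocin (SD, n = 3). IRF9, the DNA-binding part of the complex with STAT2, rose from 78.6 ± 9.004 to 255 ± 41.5 (SD, n = 3) in SCC15, by 1.68 (SE 0.17, adjusted p = 1.70e-04, limma), and from 104 ± 9.61 to 176 ± 50.3 in SCC25, by 0.72 (SE 0.18, adjusted p = 0.00295, limma). TYK2 rose by 0.42 and 0.49 and JAK1 rose by 0.35 in SCC15, but with equal library totals the SCC15 values were -0.076 and -0.14 and not past the threshold, and both SCC15 calls were lost without any 1 of the DMSO libraries. STAT2 fell by 0.30 in SCC25. Among the related receptors, SCC15 had 1 of 5 tested genes higher and 3 lower, and SCC25 had 3 of 6 higher and 2 lower, with medians of -0.68 and 0.33. IFNGR1, the ligand-binding chain for interferon gamma, fell by 0.79 and 0.66, and its partner IFNGR2 rose by 1.47 and 0.47. IL20RA, a chain of the interleukin-20 receptors, fell by 0.85 and 1.67, and IL10RA, the ligand-binding chain for interleukin-10, rose by 1.04 in SCC25. The SCC15 call of IL20RA was lost without any 1 of the DMSO libraries.

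Of 9 negative regulators, SCC15 had 4 higher and 1 lower, and SCC25 had 4 of each, with medians of 0.058 and -0.13. SOCS1, which blocks the receptor kinases, had 1366, 1331 and 1820 normalized counts with squamocin and 68.2, 57.7 and 58.5 with DMSO in SCC15, and 3839.7, 4086 and 3899 against 201, 192 and 181 in SCC25. It rose by 4.58 (SE 0.15, adjusted p = 4.72e-06, limma) and 4.36 (SE 0.060, adjusted p = 2.22e-14, limma), the largest values among the genes of these lists in each line. TNFAIP3, a ubiquitin-editing inhibitor of NF-kappaB signalling, rose by 0.99 and 1.70, and PTPN2, a phosphatase that acts on JAK1, rose by 0.82 and 0.69. SOCS3, a relative of SOCS1, fell by 0.23 and 0.86. Over these pathway lists together, of 48 tested genes, SCC15 had 18 higher and 14 lower, and SCC25 had 22 and 20, beside 30.9% and 30.0% of all genes in SCC15 and 38.3% and 38.5% in SCC25. With equal library totals, the SCC15 counts were 11 higher and 27 lower, where 2357 of all 15902 genes were higher and 8033 lower, and without squamocin replicate 3 they were 21 and 18.

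The interferon-stimulated genes, the usual readout of these ligands, moved in both directions. Of 29 such genes, 11 were higher and 15 lower in SCC25 (38.3% and 38.5% of all genes), with a median log2 fold change of -0.16 against -0.015 over all genes tested. In SCC15, 3 were higher and 12 lower (30.9% and 30.0% of all genes), with a median of -0.37 against 0.012, and without squamocin replicate 3 these counts were 6 and 20, and with equal library totals 2 and 21. RSAD2, the antiviral enzyme viperin, rose in SCC25 from 50.9 ± 8.87 to 484 ± 39.6 normalized counts (SD, n = 3), a log2 fold change of 3.24 (SE 0.14, adjusted p = 4.42e-10, limma). OASL, a relative of the oligoadenylate synthetases, rose there from 486 ± 12.3 to 3128 ± 69.9, by 2.68 (SE 0.049, adjusted p = 2.93e-13, limma), while IFITM1, a membrane protein that blocks viral entry, fell by 2.81 (SE 0.060, adjusted p = 1.05e-12, limma). In SCC15 these 3 genes were at -0.33, 0.0035 and 0.033 and not past the threshold. There, SAMD9L fell by 1.67, IFIT5, an RNA-binding antiviral protein, by 1.30 and HERC6 by 1.28. Genes called in both lines, named after their calls were seen, were ISG15 and ISG20 as higher in both, 8 as lower in both (IFIT3, IFIT5, MX1, MX2, OAS2, OAS3, IFI44L and SAMD9L), and IFIT2, CMPK2 and DDX60 as lower in SCC15 and higher in SCC25. The limma contrast of the lines put 11 of the 29 at a higher response in SCC15 and 15 at a higher response in SCC25, where 52.2% of all genes tested differed in either direction. The SCC15 side depended on the scaling. With equal library totals, IFI35, IFI44L, OAS2, OAS3 and XAF1 left it, no longer past the threshold (adjusted p = 0.0723 to 0.584, limma). EPSTI1 then came past the threshold with a higher response in SCC25 (adjusted p = 0.00519, limma).

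With DMSO, the interferon-stimulated genes were as a sum more abundant in SCC15, as the ligands were. Summed over the 29 genes, the level was 15291 ± 232 RPM (SD, n = 3) in SCC15 and 2766 ± 17.8 in SCC25. OASL, ISG15 (1606 RPM) and RSAD2 were the largest parts of the SCC15 sum. Of the 29, 22 were higher in SCC15, while IFIT5, MX1, IFI27, IFI35, IFITM1, XAF1 and EPSTI1 were higher in SCC25. The share of all genes higher in SCC15 was not taken, so nothing is read from that count. RSAD2 stood at 1539.9 against 2.78 RPM, OASL at 4293 against 26.6 and CXCL10, a chemokine named after its values were seen, at 204 against 7.37. With squamocin, the sum was 11685 ± 2114 in SCC15, with the highest value in replicate 3, and 2376 ± 45.8 in SCC25. On this scale, library totals are equal, and the median over all tested genes was at -0.48 in SCC15 and -0.22 in SCC25. The sums were not taken with the authors' factors, with which these medians were 0.012 and -0.015, so their fall with squamocin is given for this scale only.

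**Figure D3:**
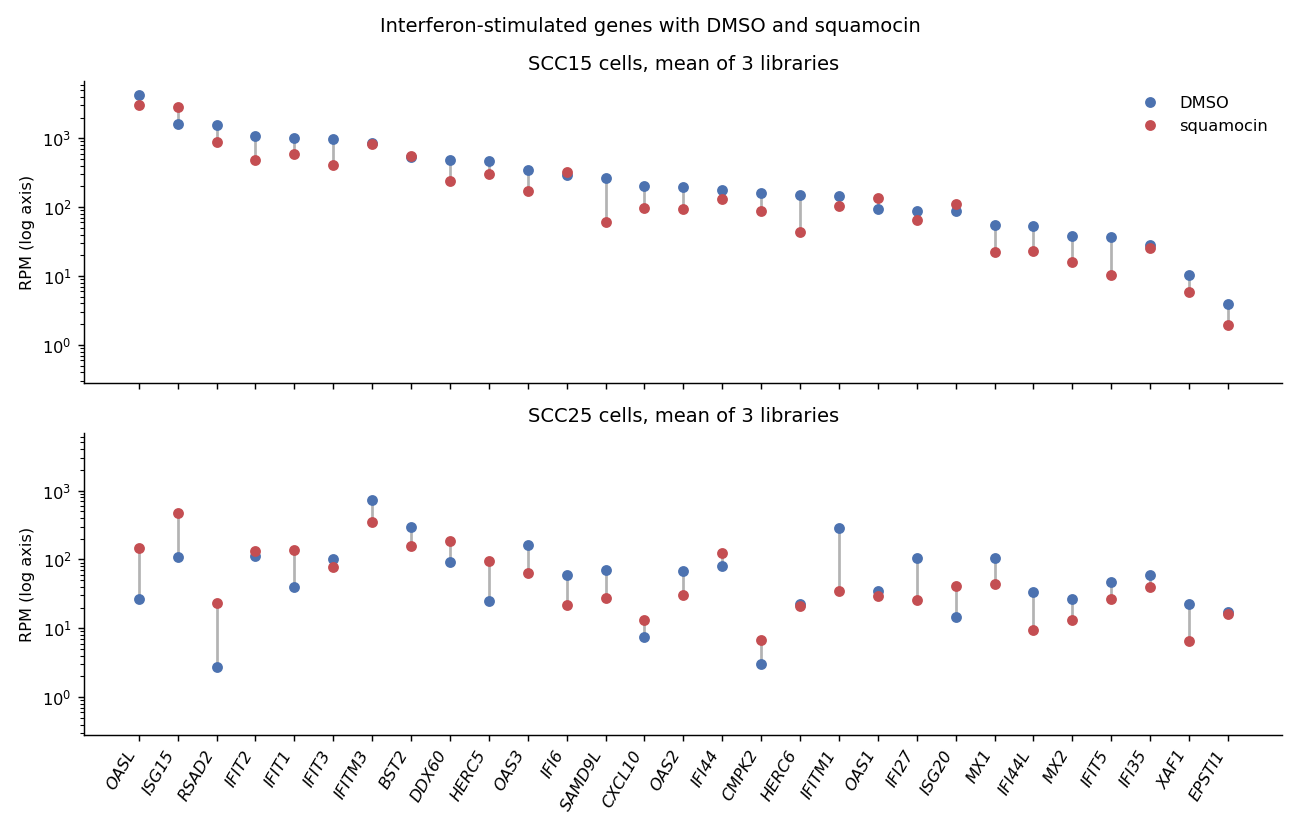
RPM (log axis, mean of 3 libraries) of 29 interferon-stimulated genes with DMSO (blue) and squamocin (red) in SCC15 (top) and SCC25 (bottom), in the order of their level in SCC15 with DMSO. In SCC25 RSAD2, OASL and ISG15 rose and IFITM1 fell. With DMSO, 22 of the 29 genes were below their level in SCC15, whereas IFITM1 was above it. The share of all genes below SCC15 was not taken.

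By position, the tested genes around the ligands did not share their direction. Within 100 kb of the lambda interferons, 12 other genes were listed in SCC15, of which 2 were higher, 2 lower, 2 not past the threshold and 6 too low to test, and 10 in SCC25, of which 2 were higher, 4 lower and 4 too low to test. Of all genes, 30.9% were higher and 30.0% lower in SCC15, and 38.3% and 38.5% in SCC25. Among those too low to test in SCC25, IFNL3P1, an interferon lambda pseudogene 6260 bases from IFNL3, had a mean of 15.9 with squamocin against 2.27 with DMSO, RN7SL566P 9.14 against 3.34 and AC011445.2 2.95 against 0, while GMFG had 2.17 against 2.92. PAK4 and PAF1 were the higher genes in both lines, with log2 fold changes of 0.73 and 0.46 in SCC15 and 0.48 and 0.49 in SCC25, although with equal library totals the SCC15 values were 0.23 and -0.033 and not past the threshold. LRFN1, which lies 7895 bases from IFNL1, fell by 0.75 and 1.88. NCCRP1 fell by 3.49 in SCC25. Within 100 kb of IFNB1, FOCAD was at 0.28 in SCC15 and -0.26 in SCC25, both past the threshold, and HACD4 at 0.32 in SCC25, also past it, and -0.31 in SCC15, not past it. With equal library totals, FOCAD in SCC15 was at -0.22 and HACD4 in SCC25 at 0.11, neither past the threshold, and HACD4 in SCC15 was at -0.81, past it (adjusted p = 0.00148, limma).

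Over the 12 libraries, the genes with the most similar profile were ranked by the root mean square difference of the log2 values, each taken relative to the DMSO mean of its line, among 12035 protein-coding genes with a mean of at least 10 in both tables. For IFNL1 these were IFNL2 (0.70), IFNL3 (0.71), HIST1H2AE (0.80), ABCC9 (0.86) and SERPINB2 (0.92). For IFNB1 they were the chemokine gene CCL5 (0.30), HIST1H2BJ (0.34), HIST1H2BD (0.36), RSAD2 (0.44) and MAP1B (0.44). CCL5 went from 70.8 to 880.0 normalized counts in SCC25 and from 26907 to 21244 in SCC15.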

How the data were processed

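RNA-seq libraries of SCC15 and SCC25 cells were analysed from the deposited tables, 1 per cell line. Per the labels and the submitters' processing notes, the libraries were made with a NEBNext Ultra kit, and HISAT2 2.0.5, featureCounts 1.5.0-p3 and GRCh38 were used. The deposited signal is a normalized count, obtained by the authors from the reads on a gene and a size factor for its library, with the lines treated separately. The columns of SCC25 are named as FPKM but behave as normalized counts. Multiplied by the recovered factor, all values were whole reads within 0.01. The fold changes and p-values of the authors' own comparison, also in the tables, were not used.

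The 8 genes and all gene lists were chosen with earlier results of these data known. Besides the 8, the text names up to 3 genes per list and line past the threshold with the largest absolute log2 fold change, the neighbours within 100 kb that it gives values for, tested or not, and the 5 genes closest in profile to IFNL1 and to IFNB1. Further interferon-stimulated genes were named after their calls or values had been seen. Genes with a mean of at least 10 were tested with limma 3.58.1 (two-sided, eBayes with trend, R 4.3.3) on log2 (normalized count + 1), in the 6 libraries of a line, and the lines were compared as a contrast over all 12. Alternatives were tests of the recovered reads with DESeq2 1.42.0 and edgeR 4.0.16, scaling by TMM or to equal library totals, pseudocounts of 0.1 and 10, other filters (any value above 0, or at least 10 in every library), a block for the replicate number and the removal of single libraries. Promoters are from RefSeq and transcripts and exons from GENCODE 44. The scripts were tested on simulated data. 1 gene of the signalling list is not reported here, and it is left out of the counts and medians. Other experiments of the study were not analysed here.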

Additional observations from a re-analysis of the deposited data

Results flagged for a closer look

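Of 24 named genes tested in both lines, a count that leaves out STING1, 18 responded differently to squamocin by the limma contrast of the lines. STING1 also did. The genes were named for large values in 1 or both lines, so nothing is read from that count. The differences below are SCC15 minus SCC25 on the log2 scale. The response was higher in SCC15 for IFITM1 by 2.84 (adjusted p = 7.73e-08, limma), HMGA1 by 2.73, STING1 by 1.31, IFNGR2 by 1.01, IRF9 by 0.95, SOCS3 by 0.63, JUN by 0.56, STAT2 by 0.53 and JAK1 by 0.50. It was lower in SCC15 for RSAD2 at -3.57 (adjusted p = 1.04e-07, limma), OASL at -2.68, DDX58 at -1.88, HERC6 at -1.39, TRAF6 at -0.96, IFIT5 at -0.71, TNFAIP3 at -0.70, TLR3 at -0.68, IRF1 at -0.53 and SAMD9L at -0.53. With equal library totals, JUN at 0.27, IRF9 at 0.67, STAT2 at 0.24 and JAK1 at 0.21 were no longer past the threshold (adjusted p = 0.0597, 0.0922, 0.350 and 0.3585, limma). IFNGR1, at -0.14 and not past it with the authors' factors (adjusted p = 0.271, limma), came past it at -0.43 (adjusted p = 4.58e-04, limma).

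IFNLR1 was lower with squamocin in every SCC15 library, with a log2 difference of -0.91, and higher in every SCC25 library, at 0.46, on the authors' scaling. With equal library totals the SCC25 value was 0.25 and its groups overlapped. This difference between the lines was not tested, since the gene was chosen with these values known.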

How the results depend on the processing

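With equal library totals, the median log2 fold change over all genes was -0.48 in SCC15 and -0.22 in SCC25, against 0.012 and -0.015 with the authors' factors. In SCC15, that scaling gave 2357 genes higher and 8033 lower in place of 4921 and 4773, 11 pathway genes higher and 27 lower, and 21 interferon-stimulated genes lower, and it turned TYK2 to -0.076 and JAK1 to -0.14. IFNL3 in SCC15 and IL10RB in both lines changed sign with it. DESeq2 called 6 interferon-stimulated genes higher in SCC15 in place of 3. Leaving out single libraries, the SCC15 pathway genes called lower ranged from 9 (without DMSO replicate 1, and as many without DMSO replicate 3) to 18. The interferon-stimulated genes called higher ranged from 2 to 6 (6 without squamocin replicate 1 or 3), and those called lower from 11 to 20, the latter without squamocin replicate 3. Of 553 alternatives for the 37 named values, 534 kept their direction and side of the threshold, 17 kept the direction but not the call (3 for IL20RA, 6 for TYK2 and 8 for JAK1, all in SCC15), and 2 reversed. For the 8 genes, 209 of 236 alternative values lay within 1 SD of the value given and 27 did not. In SCC25 the 4 ligands moved most with a pseudocount of 10, IFNB1 to 1.89. In SCC15, IFNAR1 and IFNAR2 were each past the threshold in 11 of 15 alternatives (IFNAR1 was not without DMSO or squamocin replicates 1 or 2, and IFNAR2 not with equal library totals or without DMSO replicate 1 or 2 or squamocin replicate 2), IFNL1, which was not past it, in 5 and IFNB1 in 2. In SCC25, IFNLR1 was not past it with equal library totals. Since the choice of the 8 genes used this contrast, nothing is read from these calls either. The causes were not tested.

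The labels number the replicates 1 to 3 in each group, but same-numbered libraries did not deviate together, with correlations between -0.051 and 0.008 (0.049 at most for any pair), so the number was not taken as a pairing. With the replicate number as a block, limma called 4665 genes higher and 4451 lower in SCC15 and 6294 and 6317 in SCC25, with 15 and 13 pathway genes in SCC15, and of the named calls JAK1 in SCC15 was lost (adjusted p = 0.0530, limma).

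The low counts of the ligands in SCC25 with DMSO, at most 4 reads per library, limit how well their ratios are known, and levels of IFNL2, IFNL3, IL10RB and IFNAR2 depend on how shared reads were counted.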
